A study of Mus with 4 samples.

Results

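S100 genes encode small calcium-binding proteins, and 10 mouse members of the family were followed here in a mouse prostate cancer line, PPS-ICBR, labelled as of the C57Bl6 strain. The members (S100a1, S100a3, S100a4, S100a6, S100a8, S100a9, S100a10, S100a11, S100a13 and S100a16) were found by taking each Affymetrix probe set whose platform annotation gave 1 of these symbols and no other. This selected 13 of 45037 probe sets and 9 of 18193 genes. S100a11 had 0 such probe sets, because the 1 probe set annotated to it also carries a pseudogene and a predicted gene, and no value is given for it. S100a1 and S100a16 had 2 probe sets, S100a10 had 3, and the other 6 genes had 1 each. All 13 probe sets matched a RefSeq gene by gene ID.

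Cells plated at 60% confluency were kept overnight with vorinostat at 5 µM, dissolved in DMSO (2 arrays), or with 5 µL of DMSO alone in 10 mL of medium (2 arrays). Vorinostat blocks histone deacetylases, a family of enzymes that remove acetyl groups from histones. Both groups share the cell line and the medium. Whether replicate arrays stem from different cultures is not in the labels, so each p-value reflects the spread between these arrays alone, and that spread may be technical. With 2 arrays a group, the precision of every value is limited.

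An S100 protein is built of a pair of EF-hands, helix-loop-helix motifs that bind calcium, and most members work as dimers. Binding of calcium opens a surface with which the dimer holds a target protein. Inside the cell the targets include annexins, which link membranes to the cytoskeleton, and non-muscle myosin. Outside the cell some members act as signals through the receptor RAGE or Toll-like receptors, and S100a8 and S100a9 form calprotectin, a metal-binding complex abundant in neutrophils. Most S100 genes lie in a single cluster, which also holds genes of the cornified envelope of skin.

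Levels are the deposited log2 values. A difference is the mean of the 2 vorinostat arrays minus the mean of the 2 DMSO arrays, on the log2 scale. Its standard error (SE) is limma's moderated one, whose variance is drawn towards a value estimated from all probe sets. A difference passed when limma's adjusted p, taken over all 45037 probe sets, was under 0.05. A gene with several probe sets was represented by the brightest of them, judged on the mean of the 4 arrays. A group was called near background at a probe set when each of its arrays read no higher than a limit. The limit was 1 log2 unit above the highest TrpnX control, a bacterial transcript, on that array. That limit lay between 3.54 and 3.78 on the 4 arrays. Array medians ranged from 4.19 to 4.28 and the highest value on an array from 13.78 to 13.90.

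S100a13, S100a3, S100a1, S100a10, S100a8 and S100a6 were higher with vorinostat past the threshold and S100a4 was lower, while S100a9 and S100a16 did not pass. In all, 6 of 9 member genes passed as higher, against 20.9% of all genes, and 1 of 9 as lower, against 18.9% of all genes. By probe set, 9 of 13 were higher and 1 lower, against 16.5% and 15.7% of all probe sets. The members were chosen with earlier results of these data known, so these counts are no test of the family. Of 5 other measured S100 genes, described further below, 0 passed as higher and 0 as lower. S100a8 lay near background in both groups, so its pass carries no fold change. The differences of S100a13, S100a3 and S100a1 were at least 2-fold, which makes 3 of 9 genes against 5.74% of all genes. The vorinostat arrays lay above both DMSO arrays for 6 member genes (37.3% of all genes) and below both for 1 (31.6% of all genes). The median difference of the 9 genes was 0.65, against 0.03 over all genes. That middle value is the difference of S100a8 itself. Leaving out any single array kept the calls of S100a1, S100a3, S100a10 and S100a13 and lost those of S100a8, S100a6 and S100a4. Fewer of all genes passed in those fits as well. With arrays scaled on 8 reference genes 6 members were higher and 0 lower, against 40.3% and 13.6% of all genes. That scaling adds 0.22 to every difference, which moved the median of all genes to 0.25 and turned the counts over all genes from 3806 higher and 3444 lower to 7334 and 2479. The mean of the reference genes rests largely on Gusb (-1.42) and Polr2a (-0.75).

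**Figure D1:**
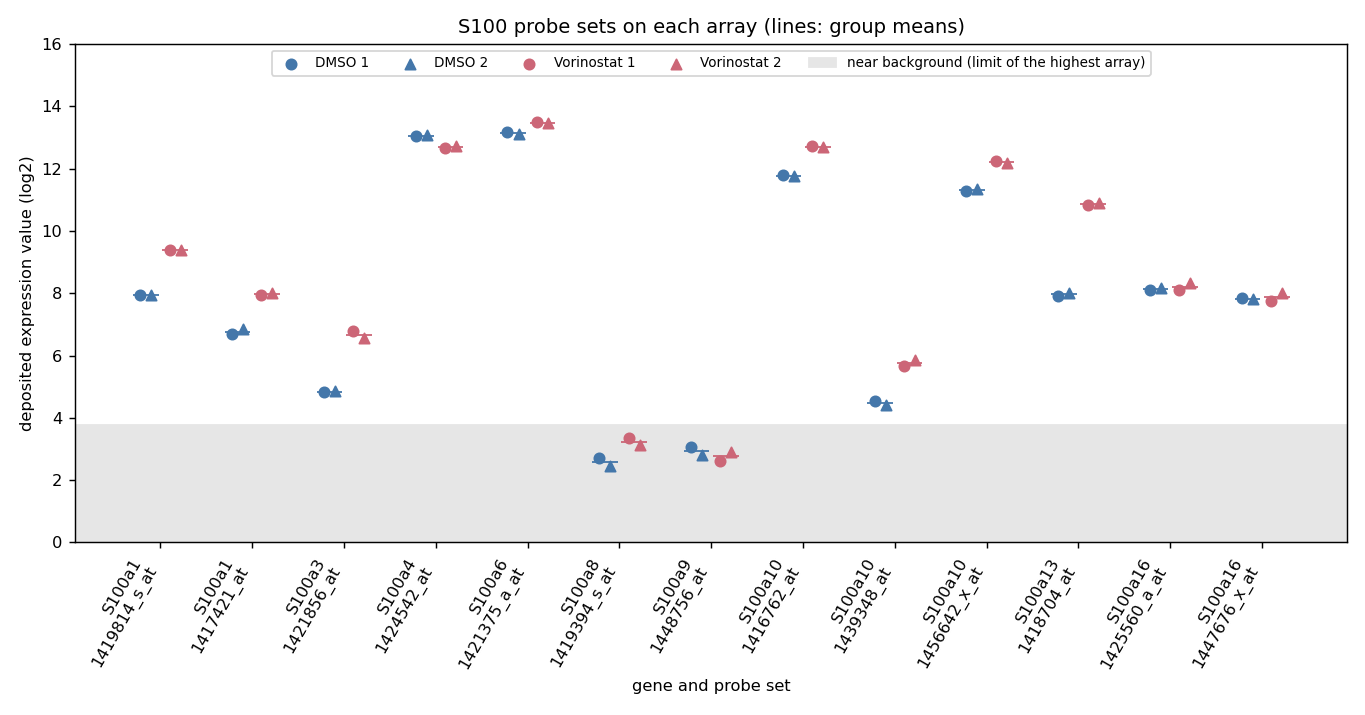
Deposited log2 value (vertical axis) of the 13 S100 probe sets on each of the 4 arrays, with circles for replicate 1, triangles for replicate 2 and lines for the group means. The vorinostat arrays of S100a13 lie at 10.84 and 10.88, above DMSO arrays at 7.92 and 8.00, and all arrays of S100a8 and S100a9 lie in the grey zone near background.

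The largest change was that of S100a13, a copper-binding member known for the release of the growth factor FGF1 and interleukin-1 alpha by a route that bypasses the secretory pathway. Its probe set (1418704_at) read 7.92 and 8.00 in DMSO and 10.84 and 10.88 with vorinostat. The groups were far apart and the arrays of each group lay close together. The rise was 2.90 (SE 0.08), or 7.46-fold, with an adjusted p of 0.00016 by limma, at rank 57 among 18193 genes by measured rise. It stayed between 2.86 and 2.94 when any single array was left out.

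S100a1, best known as a regulator of calcium cycling in heart and skeletal muscle, lies next to S100a13. At its brighter probe set (1419814_s_at) the DMSO arrays read 7.94 and 7.95 and the vorinostat arrays 9.38 and 9.39. Its second probe set (1417421_at) read 6.69 and 6.85 in DMSO and 7.94 and 8.02 with vorinostat. The groups were separate at both. The rises were 1.45 (SE 0.08), or 2.72-fold, and 1.21 (SE 0.09), or 2.31-fold, with adjusted p-values of 0.000275 and 0.000678 by limma. In the RefSeq gene table the spans of S100a1 and S100a13 overlap, and the brighter S100a1 probe set has the suffix (_s_at) that marks probes shared by more than 1 transcript. Whether S100a13 transcripts contribute to the S100a1 signal was not tested.

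S100a3, a cysteine-rich and zinc-binding member known from the hair cuticle, rose from low values. Its probe set (1421856_at) read 4.83 and 4.85 in DMSO, above the background limit, and 6.78 and 6.56 with vorinostat. No DMSO array came within 1 log2 unit of a vorinostat array. The rise was 1.83 (SE 0.10), or 3.55-fold, with an adjusted p of 0.000314 by limma, and it ranged from 1.72 to 1.94 over the omission of single arrays. The span of S100a3 overlaps that of S100a2 in the RefSeq table, and S100a2 was not analysed here.

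S100a10, also called p11, does not bind calcium and stays in its active form, in which it pairs with annexin A2 at the plasma membrane. The brightest of its 3 probe sets (1416762_at) read 11.78 and 11.76 in DMSO and 12.71 and 12.70 with vorinostat. A second (1456642_x_at) read 11.28 and 11.35, then 12.24 and 12.17. The dimmest (1439348_at) read 4.54 and 4.41, then 5.67 and 5.86. All 3 probe sets rose with separate groups, by 0.94 (SE 0.08), 0.89 (SE 0.08) and 1.29 (SE 0.10), and their adjusted p-values by limma lay between 0.000752 and 0.0011. On the linear scale the rises were 1.91-fold, 1.85-fold and 2.45-fold. The bright pair thus lay just under 2-fold and the dim probe set above it.

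S100a6, calcyclin, and S100a4, which binds non-muscle myosin and is known for its link to cell motility and metastasis, moved in opposite directions by small amounts. S100a6 (1421375_a_at) read 13.16 and 13.11 in DMSO and 13.49 and 13.45 with vorinostat. S100a4 (1424542_at) read 13.04 and 13.07 in DMSO and 12.67 and 12.72 with vorinostat. The groups did not overlap at either gene. S100a6 rose by 0.33 (SE 0.08, adjusted p = 0.0264), or 1.26-fold, and S100a4 had a difference of -0.36 (SE 0.08, adjusted p = 0.0192), or 1.29-fold lower.

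Both small calls depended on the fit. Leaving out any single array kept the direction of S100a6 (0.31 to 0.36) and of S100a4 (-0.39 to -0.34) but lost both calls, with adjusted p-values by limma from 0.0873 to 0.132 for S100a6 and from 0.0818 to 0.111 for S100a4. With arrays scaled on the reference genes the difference of S100a4 was -0.14 (adjusted p = 0.222) and that of S100a6 0.56 (adjusted p = 0.00344). With arrays centred on their medians S100a6 was at 0.27 and did not pass (adjusted p = 0.0643), and with the replicate number as a block its adjusted p was 0.0584. The change of S100a6 exceeded that of S100a4 by 0.70, a quantity that no scaling of whole arrays alters, and by 0.62 to 0.78 in the 4 pairs of a vorinostat with a DMSO array. Both genes read within 1.23 log2 units of the highest value on their array, and whether signals of this height are compressed was not tested.

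S100a16, a broadly expressed member, did not pass at either probe set. The first (1425560_a_at) read 8.11 and 8.16 in DMSO and 8.10 and 8.31 with vorinostat, a difference of 0.07 (SE 0.10, adjusted p = 0.683). The second (1447676_x_at) read 7.84 and 7.80, then 7.75 and 8.00, a difference of 0.05 (SE 0.11, adjusted p = 0.771). At both the vorinostat arrays fell on either side of the DMSO arrays, with array 1 lower and array 2 higher, and the difference was -0.04 and -0.07 without Vorinostat 2.

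The calprotectin genes had little signal. S100a9 (1448756_at) read 3.05 and 2.81 in DMSO and 2.63 and 2.91 with vorinostat, overlapping and near background in both groups (difference -0.16, SE 0.14, adjusted p = 0.441). S100a8 (1419394_s_at) read 2.71 and 2.46 in DMSO and 3.35 and 3.13 with vorinostat. The S100a8 groups did not overlap and the difference of 0.65 (SE 0.13) passed with an adjusted p of 0.0143 by limma, but both groups stayed near background, so no fold is given. That call was lost on leaving out any single array, with adjusted p-values from 0.0544 to 0.112.

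**Figure D2:**
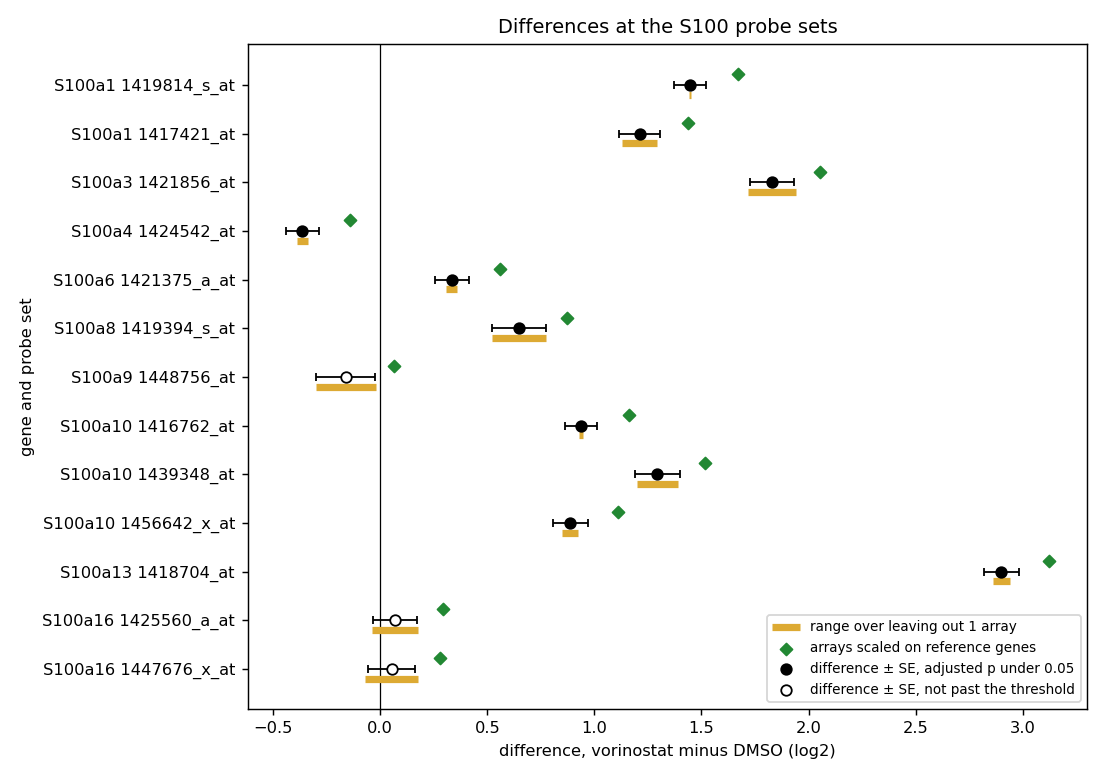
Difference between vorinostat and DMSO (horizontal axis, log2) at each S100 probe set, as circles with SE bars, filled where the adjusted p by limma was under 0.05, with the range over the omission of 1 array in yellow and the value after scaling on reference genes as green diamonds. S100a13 lies at 2.90 and S100a4 at -0.36, and the 3 S100a10 probe sets lie between 0.89 and 1.29.

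Along the chromosome, members that rose and members that did not pass were neighbours. By gene order in the RefSeq table (assembly GRCm38.p6), the measured genes run S100a1, S100a13, S100a14, S100a16, S100a3, S100a4, S100a5, S100a6, S100a8, S100a9. S100a14, beside S100a13, read 6.71 and 6.65 in DMSO and 6.38 and 6.69 with vorinostat (difference -0.14, SE 0.12, adjusted p = 0.46), and its sign turned without Vorinostat 1 (0.01) and under reference-gene scaling (0.08). S100a5, between S100a4 and S100a6, had a difference of 0.24 (SE 0.12, adjusted p = 0.203). On the outer side of S100a1, Chtop, which encodes a chromatin target of an arginine methyltransferase, fell by 0.45 (SE 0.09, adjusted p = 0.0173). That call was lost without DMSO 1, Vorinostat 1 or Vorinostat 2, under the replicate block (adjusted p = 0.0527) and under reference-gene scaling (-0.22).

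Among the measured members, S100a10 lies apart from the others, beyond the cornified-envelope genes. Its nearest measured neighbours that are no members, Tchhl1 and Tdpoz1, were near background in both groups, with differences of -0.01 and -0.15. From the first to the last member the table holds 70 protein-coding genes, of which 48 were measured. Of the 39 that are no members, 11 rose and 0 fell, against 20.9% and 18.9% of all genes, and 15 were near background in both groups. The larger rises in that stretch, chosen after their values were seen, were those of the small proline-rich genes Sprr2h (5.16) and Sprr1b (4.22) and of Prr9 (3.88). Without DMSO 1 the number that rose was 6, against 12.3% of all genes, and it was 21 under reference-gene scaling, against 40.3%.

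**Figure D3:**
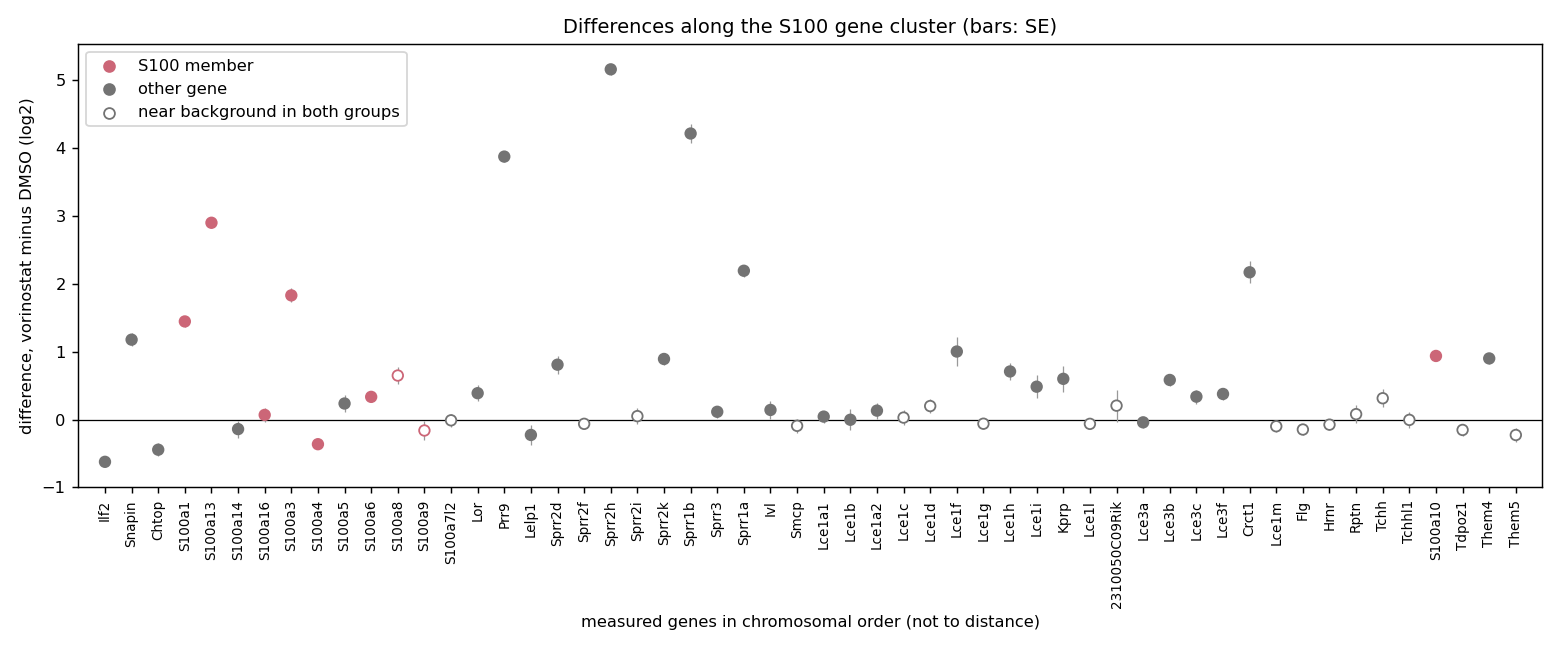
Difference between vorinostat and DMSO (vertical axis, log2, bars SE) for measured genes in their order along the chromosome (horizontal axis, not to distance), S100 members in red and other genes in grey, open where both groups were near background. S100a13 at 2.90 stands beside S100a14 at -0.14, and S100a10 at 0.94 stands beyond the cornified-envelope genes.

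The other S100 genes did not pass. Of 7 listed, 5 were measured (S100a5, S100a14, S100a7l2, S100b and S100g). By limma 0 were higher and 0 lower, against 20.9% and 18.9% of all genes. Their median was 0.05, against 0.03 over all genes. S100b, a glial member, read 4.12 and 4.17 in DMSO and 4.22 and 4.17 with vorinostat. S100g, the intestinal calbindin, was near background in both groups, with a difference of 0.24 (SE 0.12, adjusted p = 0.202), as was S100a7l2 (-0.01). Under reference-gene scaling 3 of the 5 passed as higher, against 40.3% of all genes. Of 7 genes with an S100 domain fused to long repeats, such as filaggrin, 5 were measured and all 5 were near background in both groups. Of these, 0 passed by limma, against 20.9% of all genes higher and 18.9% lower, and their median was -0.0057. Tchh, trichohyalin, had the smallest p (difference 0.31, adjusted p = 0.142 by limma).

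Proteins that S100 dimers bind inside the cell had 6 of 13 measured members higher and 1 lower, out of 15 listed, against 20.9% and 18.9% of all genes. Their median was 0.38, against 0.03 over all genes. Anxa2, which encodes the annexin partner of S100a10, read 12.21 and 12.22 in DMSO and 13.08 and 13.09 with vorinostat. It rose by 0.87 (SE 0.08, adjusted p = 0.000924), beside the 0.94 of S100a10 on the same scale. Other probe sets of Anxa2 were at 0.33, which passed, and -0.29, which did not and was near background in both groups. Anxa1, the annexin partner of S100a11, rose by 0.48 (SE 0.08, adjusted p = 0.00654), a call lost without DMSO 1, Vorinostat 1 or Vorinostat 2, with adjusted p-values from 0.0513 to 0.0583.

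The annexin Anxa6 rose by 1.82 (SE 0.09, adjusted p = 0.000243), against 1.63 and 0.05 at 2 of its other probe sets and at least 0.38 at the last, near background in DMSO. Syt1, a calcium sensor of vesicle release that joins S100a13 in the export of FGF1, rose by 1.90 (SE 0.12, adjusted p = 0.00037). It rose by at least 0.11 and at least 0.58 at 2 other probe sets that were near background in DMSO, and a last one was near background in both groups. Fgf1 itself was near background in both groups at every probe set. Its brightest had a difference of 0.24 (SE 0.09, adjusted p = 0.108 by limma), and the others were at 0.21 and, passing, 0.55. S100pbp, which encodes an S100-binding nuclear protein, rose by 0.73 (SE 0.10, adjusted p = 0.00452), a call lost without Vorinostat 1 (adjusted p = 0.0553). Cacybp, the calcyclin-binding protein that takes its name from S100a6, read 10.60 and 10.63 in DMSO and 9.96 and 9.91 with vorinostat. It was the partner that fell, by 0.68 (SE 0.08, adjusted p = 0.00221). Ahnak, a giant scaffold protein that binds the complex of S100a10 and annexin A2, had a difference of 0.38 (SE 0.15, adjusted p = 0.12), which passed under an intensity trend and under reference-gene scaling. The other Ahnak probe sets did not pass, at 0.57, -0.13 and, near background with vorinostat, -0.16. The number of partners higher was 3 without Vorinostat 1, against 11.5% of all genes, and 10 under reference-gene scaling, against 40.3%.

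Genes for the receptors that S100 proteins use outside the cell had 3 of 9 measured members higher and 4 lower, against 20.9% and 18.9% of all genes, and a median of -0.26. Tlr4, a Toll-like receptor for which calprotectin is a ligand, read 7.24 and 7.10 in DMSO and 6.27 and 6.69 with vorinostat, and fell by 0.69 (SE 0.16, adjusted p = 0.0235). Its co-receptors fell further, Ly96 by 1.85 (SE 0.10, adjusted p = 0.000295) and Cd14 by 1.67 (SE 0.18, adjusted p = 0.00173). The fourth was Myd88, the adaptor of Toll-like receptors, with a difference of -0.52 (SE 0.11, adjusted p = 0.016). Another Tlr4 probe set was at -0.88 and passed, and 2 others did not pass, at -0.75 and, near background in both groups, at 0.02.

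The Tlr4 call was lost without DMSO 1, DMSO 2 or Vorinostat 1, under the replicate block (adjusted p = 0.0728) and under reference-gene scaling (adjusted p = 0.0514). Fewer receptors passed as lower without DMSO 1, DMSO 2 or Vorinostat 1, as did fewer of all genes. Under reference-gene scaling 2 receptors fell, against 13.6% of all genes. With arrays centred on their medians 5 fell, against 21.4%. Ager, which encodes RAGE, read 4.12 and 4.08 in DMSO and 3.82 and 3.85 with vorinostat. The background limits of those vorinostat arrays were 3.78 and 3.63. Its difference of -0.26 (SE 0.08, adjusted p = 0.0528 by limma) passed with arrays centred on their medians (-0.32) and was -0.04 under reference-gene scaling. The other Ager probe set did not pass (adjusted p = 0.685 by limma) and was near background with vorinostat. Alcam, an adhesion molecule reported to bind S100a8 and S100a9, rose by 2.56 (SE 0.15, adjusted p = 0.000356) and Nptn, neuroplastin, by 0.77 (SE 0.08, adjusted p = 0.00163).

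Outside the S100 family, 5 of 19 measured EF-hand genes rose and 2 fell, of 23 listed, against 20.9% and 18.9% of all genes, with a median of 0.17. The rises included Rcn3 (2.84, SE 0.12, adjusted p = 0.000211), a reticulocalbin of the endoplasmic reticulum, and Efhd1, a mitochondrial EF-hand protein near background in DMSO, which rose by at least 1.37. Its paralogue Efhd2 had a difference of -0.41 (SE 0.09, adjusted p = 0.0197) and the reticulocalbin Rcn1 one of -0.62 (SE 0.08, adjusted p = 0.00302). Efhd2 lost its call on leaving out any single array, under the replicate block (adjusted p = 0.0554) and under reference-gene scaling (-0.18, adjusted p = 0.175). Efhd1 lost its call without DMSO 2 (adjusted p = 0.0536). Under reference-gene scaling 12 EF-hand genes were higher and 1 lower, against 40.3% and 13.6% of all genes. With an intensity trend they were 9 and 3, against 22.8% and 21.0%.

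**Figure D4:**
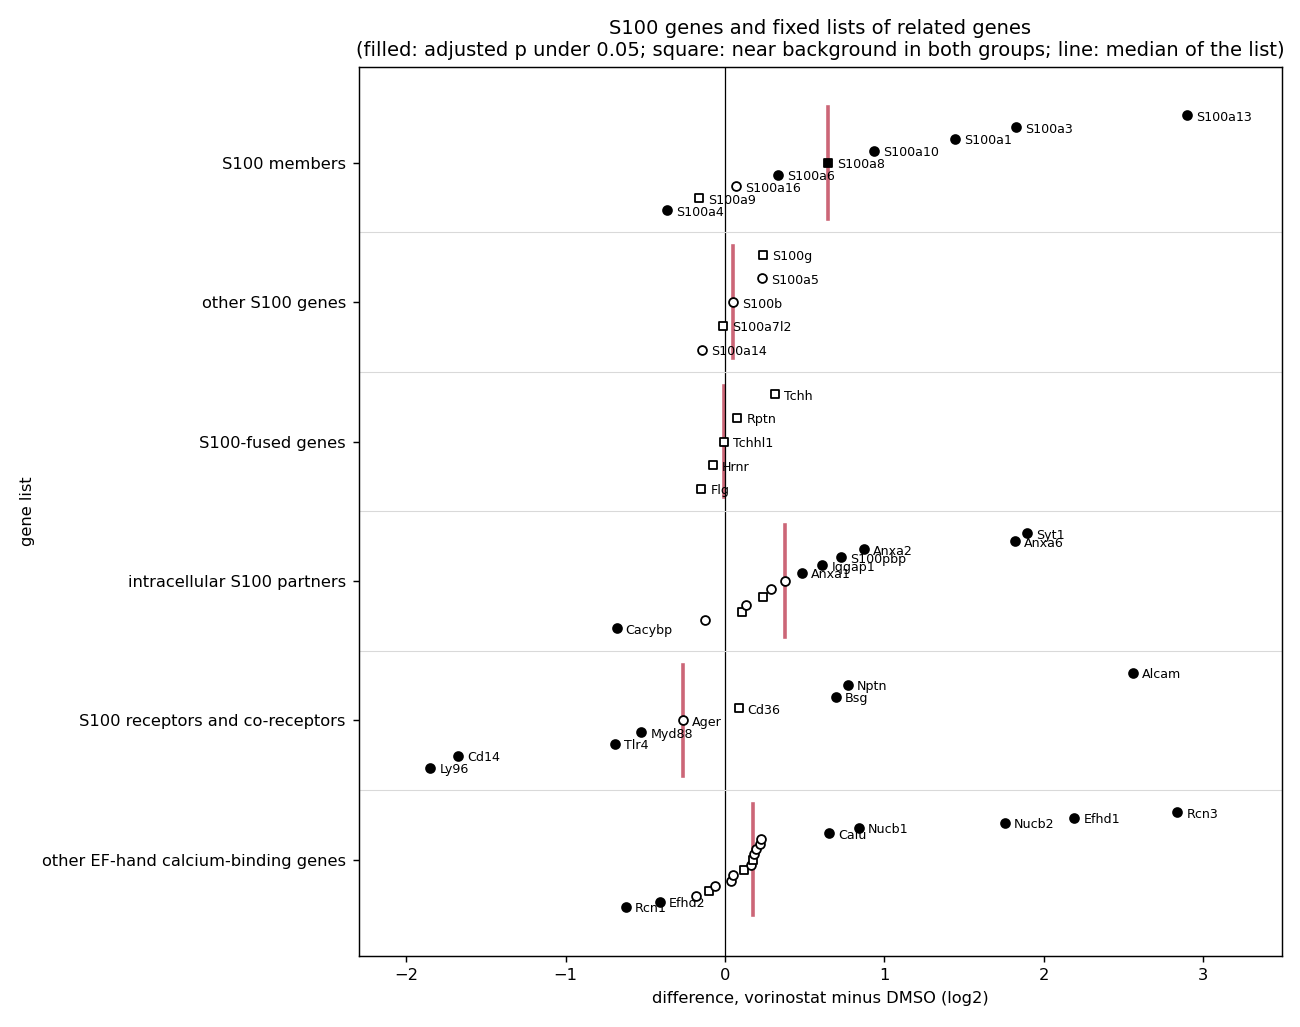
Difference between vorinostat and DMSO (horizontal axis, log2) for the genes of 6 lists, filled where the adjusted p by limma was under 0.05 and square where both groups were near background, with the median of each list as a red line. The line lies at 0.65 for the S100 members, 0.38 for the intracellular partners and -0.26 for the receptors.

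Markers of other cells were looked at because S100a8 and S100a9 mark neutrophils and S100a4 is used as a fibroblast marker. Among 11 measured neutrophil and macrophage markers, Ptprc (CD45), Itgam and Adgre1 were near background in both groups and Tyrobp with vorinostat only. Over the 4 arrays Fcgr3 (3.55 to 3.85), Lyz2 (3.42 to 3.85), Csf3r (3.62 to 3.92) and Mpo (3.47 to 4.05) read close to the background limits. Csf1r read 4.70 to 5.04 and Elane 3.95 to 4.56. Of the 11, 2 passed as higher and 0 as lower, against 20.9% and 18.9% of all genes. The summed linear level of the list was 148 and 160 in DMSO and 766 and 739 with vorinostat. Cd68, a lysosomal glycoprotein, made up 23.1 and 25.9 of that sum in DMSO and 624 and 603 with vorinostat. Csf3r was the other of the 2 markers that passed, at 0.28, and it lost its call on leaving out any single array, under the replicate block, with arrays centred on their medians and with an intensity trend (adjusted p-values from 0.0852 to 0.178). Of fibroblast markers, 2 of 7 were near background in both groups (Lum and Thy1), while Col1a2 read 12.40 to 12.68 and Dcn 9.13 to 10.55 over the 4 arrays. That list had 2 members higher (Pdgfra, 1.54, and Dcn, 1.26) and 1 lower (Pdgfrb, -2.49), against 20.9% and 18.9% of all genes. Its summed levels were 7851 and 7839 in DMSO and 6998 and 7768 with vorinostat.

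For the labelled cell type, 8 of 10 luminal markers of prostate epithelium were measured. Krt8 and Krt18, the keratins of simple epithelium, read 11.11 to 12.36 and 11.37 to 11.51, Hoxb13, a prostate homeobox gene, read 8.24 to 8.82, and Pbsn, the androgen-driven probasin, was near background in both groups. The luminal list summed to 8914 and 9202 in DMSO and 6325 and 7123 with vorinostat, and Krt8 was the 1 member lower, at -1.05. In the same list Krt19, another keratin of simple epithelium, rose by 1.10 (adjusted p = 0.000928) and Hoxb13 by 0.54 (adjusted p = 0.00497). Of the 5 basal markers 0 passed by limma, and they summed to between 110 and 123. The T, B and NK cell list had 7 measured, 1 higher and a summed level of 118 to 154. For the endothelial list 5 were measured, 0 passed and the summed level was 53.9 to 62.2. Each of these 2 lists had 3 members near background in both groups. The counts of the luminal, basal, T, B and NK cell and endothelial lists stand beside 20.9% of all genes higher and 18.9% lower. The 1 call of the T, B and NK cell list, Cd3e (0.43), was lost without DMSO 1, Vorinostat 1 or Vorinostat 2. The part of these markers in the S100 differences was not tested.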

How the data were processed

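Biotin-labelled material from 4 samples of PPS-ICBR cells was hybridised to Affymetrix mouse arrays. The values are the log2 values deposited by the authors, made with RMA and the Transcriptome Analysis Console per the submitters' processing notes, with no version given. RMA equalises the intensity distributions of the arrays, so a shift shared by all transcripts cannot be seen. With the annotation's genome build not given in the sources used here, coordinates were not used.

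Of 45101 probe sets, 64 controls were left out. A single symbol was given by the platform annotation to 34945 of the rest, several to 932, and 9160 are unnamed here. The 34741 of these 34945 with a matching RefSeq gene ID were not renamed. The RefSeq table was used for gene order and for overlaps of gene spans.

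limma 3.58.1 (R 4.3.3) was fitted to the 45037 remaining probe sets and all 4 arrays (lmFit, eBayes with 3.26 prior degrees of freedom, two-sided tests, Benjamini-Hochberg), with no filter on low values. The code was tested on simulated data. Gene lists were described by counts and medians, with no set test. The members, lists and near-background margin were chosen with earlier results of these data known. Named genes were all members, 7 genes in any case, up to 2 rises and 2 falls per list (or the smallest p where fewer than 2 passed) and the measured neighbours of members. This gave 33 genes besides the members, of which 12 rose and 12 fell. Those counts follow largely from the naming rule and cannot be compared with the 20.9% and 18.9% of all genes. Alternatives were each array left out, the replicate number as a block, a filter on dim probe sets, an intensity trend, median centring, reference-gene scaling, a 2-fold minimum and another choice of probe set.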

Additional observations from a re-analysis of the deposited data

How the results depend on the processing

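The labels give replicates 1 and 2 in both groups but do not say that a number marks a shared culture or day, and the deviations of same-numbered arrays from their group means had a correlation of -0.06 over probe sets. With the replicate number as a block, 5 member genes were higher and 1 lower (S100a6 was lost), 8 and 1 member probe sets, and 3103 and 2892 genes overall. Over the omission of single arrays, member genes numbered 4 higher and 0 lower, member probe sets 7 and 0, all genes 2094 to 2381 higher and 2046 to 2326 lower, and the member median ranged from 0.52 to 0.77. A 2-fold minimum left 3 member genes and 5 probe sets higher, 0 and 0 lower, and 1044 and 1123 of all genes. Reference-gene scaling gave 0 member genes and 0 member probe sets lower, 7334 genes higher overall and a member median of 0.87. That median was 0.59 with median centring and 0.94 after dropping probe sets under the median level, where S100a8 and S100a9 drop out. Among the genes left by that filter, 5 members were higher and 1 lower, against 33.6% and 32.2% of all genes left.

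Differences that changed sign had all failed the test. Under reference-gene scaling they were S100a9 (0.0623), S100a14 (0.0829), S100a7l2 (0.21), Tchhl1 (0.22) and Tdpoz1 (0.0704). With median centring the dimmer S100a16 probe set was at -0.0072. Over the omission of single arrays, S100a16 ranged from -0.0405 to 0.176 at its brighter and from -0.0723 to 0.178 at its dimmer probe set, S100a14 from -0.297 to 0.0142, S100a7l2 from -0.112 to 0.0881 and Tchhl1 from -0.114 to 0.103. S100a1, S100a3, S100a10 and S100a13 kept their direction and their call at each of their 7 probe sets under every alternative run except the 2-fold minimum, which 2 of the S100a10 probe sets missed. For the lost calls the cause was not tested, except that leaving out an array leaves fewer residual degrees of freedom.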

Other observations

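Regulators of myeloid genes and secreted antimicrobial proteins, which accompany S100a8 and S100a9 in neutrophils and inflamed epithelium, were also listed. Of 7 measured regulators of myeloid genes, 1 rose and 2 fell, against 20.9% and 18.9% of all genes, with a median of 0.07. Stat3, a transcription factor activated by cytokines, read 7.42 and 7.38 in DMSO and 8.46 and 8.36 with vorinostat and rose by 1.01 (SE 0.08, adjusted p = 0.000792 by limma). Its other probe sets were at 1.20, which passed, and at 0.20 and, near background in both groups, -0.11, which did not. The C/EBP family members Cebpg and Cebpd fell by 0.67 (SE 0.08, adjusted p = 0.00249) and by 0.55 (SE 0.10, adjusted p = 0.0102). The Cebpd call was lost without DMSO 1, DMSO 2 or Vorinostat 1 and under reference-gene scaling (adjusted p = 0.0507).

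Of 10 measured antimicrobial and acute-phase genes, 1 rose and 1 fell, against the same shares of all genes, and 5 were near background in both groups, with a list median of 0.07. Slpi, a secreted inhibitor of neutrophil elastase, read 7.43 and 7.61 in DMSO and 8.55 and 8.43 with vorinostat, and rose by 0.97 (SE 0.10, adjusted p = 0.00164). Reg3g, a secreted lectin, passed as lower at -0.36 while near background in both groups, and lost that call on leaving out any single array, under the replicate block (adjusted p = 0.0559) and under reference-gene scaling (-0.14, adjusted p = 0.234). Of 8 measured reference genes, 1 rose and 2 fell, against 20.9% and 18.9% of all genes. The rise was that of B2m (0.72) and the falls those of Gusb (-1.42) and Polr2a (-0.75). The other probe sets of Gusb and Polr2a were at -1.28 and 0.25. The Polr2a call was lost without Vorinostat 1 (adjusted p = 0.0837) and without Vorinostat 2 (adjusted p = 0.0677).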
